A study of Mus musculus with 6 samples.

Results

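Integrins and the other receptors that hold cells to the extracellular matrix were examined as a family of 36 genes among the 24391 genes of the deposited count files. Members were taken by gene symbol, not by their values here: every integrin α gene (18) and the integrin β genes from Itgb1 to Itgb8, the 4 syndecans, the collagen receptor kinases Ddr1 and Ddr2, and Dag1, Cd44, Cspg4 and Bcam. RNA sequencing had been carried out on tumour cells of the iBIP mouse melanoma model. Its alleles, carried by both groups, included Tyr-CreERT2 (Cre under the tyrosinase promoter of melanocytes), a doxycycline switch made of Rosa26-rtta with TetO-BRAFV600E, and floxed Ink4a/Arf written as INK/ARFL/L. Mice were of mixed FVB and B6 background, received doxycycline, and had 4-OHT put on the ear to start tumours there. KMT2D KO cells (3 libraries) came from iBIP;KMT2DL/L mice, and KMT2D WT cells (3 libraries) from iBIP;KMT2D+/+ mice, and both were kept in culture. The labels give no age and leave unsaid if replicate libraries stem from separate tumours, mice or cultures. The p-values thus cover just the library-to-library spread, possibly a technical one, and the Kmt2d genotype cannot be told apart from the tumour of origin. The 4 tested genes of chromosome Y had a median log2 fold change of -7.58 (KMT2D KO minus KMT2D WT), a difference that likewise cannot be told apart from the genotype.

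Integrins are receptors made of an α and a β chain, and the α chain largely sets which matrix protein is bound. The β1 chain is shared by most α chains, so that collagen, laminin and fibronectin receptors draw on a common β pool. Syndecans are membrane proteoglycans that bind matrix proteins through heparan sulfate and act beside integrins at adhesion sites. Dystroglycan (Dag1) binds laminin through sugar chains, the Ddr kinases signal when they bind collagen, and Cd44 binds hyaluronan. In melanoma, integrins have long been studied in growth through the dermis and in spread.

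Libraries held 55594979 to 79718782 counts in KMT2D KO and 43168605 to 59360068 counts in KMT2D WT. Levels are given as CPM, the count per 1e6 counts of the TMM-scaled library. Pearson correlations of log2(CPM + 0.5) across genes, which are not replicates, ran within a group at 0.997 to 0.999 in KMT2D KO and 0.993 to 0.996 in KMT2D WT, and across the groups at 0.909 to 0.914. Kmt2d itself, a histone H3 lysine 4 methyltransferase gene, had 73.0, 69.3 and 79.8 CPM in KMT2D KO, against 79.7, 87.6 and 101 CPM in KMT2D WT, counted over the whole gene, so that loss of its floxed part cannot be read from it. Of 8 melanocyte markers, 2 reached a mean of 1 CPM in KMT2D KO and 1 in KMT2D WT, and Tyr, Tyrp1, Dct and Oca2 averaged at most 0.0931 CPM in either group. Their summed level was 50.3 to 59.0 CPM in KMT2D KO and 15.9 to 17.4 CPM in KMT2D WT, nearly all of it Mitf. Of 8 fibroblast markers, 6 were higher and 2 lower, where 35.4% of all tested genes were higher and 35.5% lower. The sum of the 8 markers was 21240.3 to 22239.8 CPM in KMT2D KO and 5530.1 to 5730.3 CPM in KMT2D WT. Most of it was Col1a1, Col1a2 and Col3a1, while Dpt had 0.839 CPM in KMT2D KO and 44.8 CPM in KMT2D WT (-5.69) and Lum also fell (-1.29). Pigment enzyme genes were thus near 0 in both groups. The origin of the cells was not tested, and they are called by their genotype here. The extraction label names cerebellum, yet 10 cerebellar markers summed to 3.96 to 5.62 CPM in KMT2D KO and 1.01 to 1.13 CPM in KMT2D WT.

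Of the 36 receptor genes, 33 passed the low-count filter and 24 of these were called, 14 higher and 10 lower in KMT2D KO (edgeR quasi-likelihood test, Benjamini-Hochberg adjusted p under 0.05 over 14579 genes). The same rule called 71.0% of all tested genes, 35.4% higher and 35.5% lower, so the share of receptors called was near the background. Their median log2 fold change, KMT2D KO minus KMT2D WT, was 0.10, beside 0.00 over all tested genes, and their median absolute value was 0.63, beside 0.53. Changes of more than 1 on the log2 scale were called in 11 receptors, 6 higher and 5 lower, where 26.8% of all tested genes passed that limit. In 26 of the 33 the libraries of the groups did not overlap, which held for 74.3% of all tested genes. Under scaling by library size alone, which moved the median of all genes to -0.11, the counts were 13 higher and 14 lower. That setting called 71.3% of all tested genes, and 42.4% of those calls were higher.

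**Figure D1:**
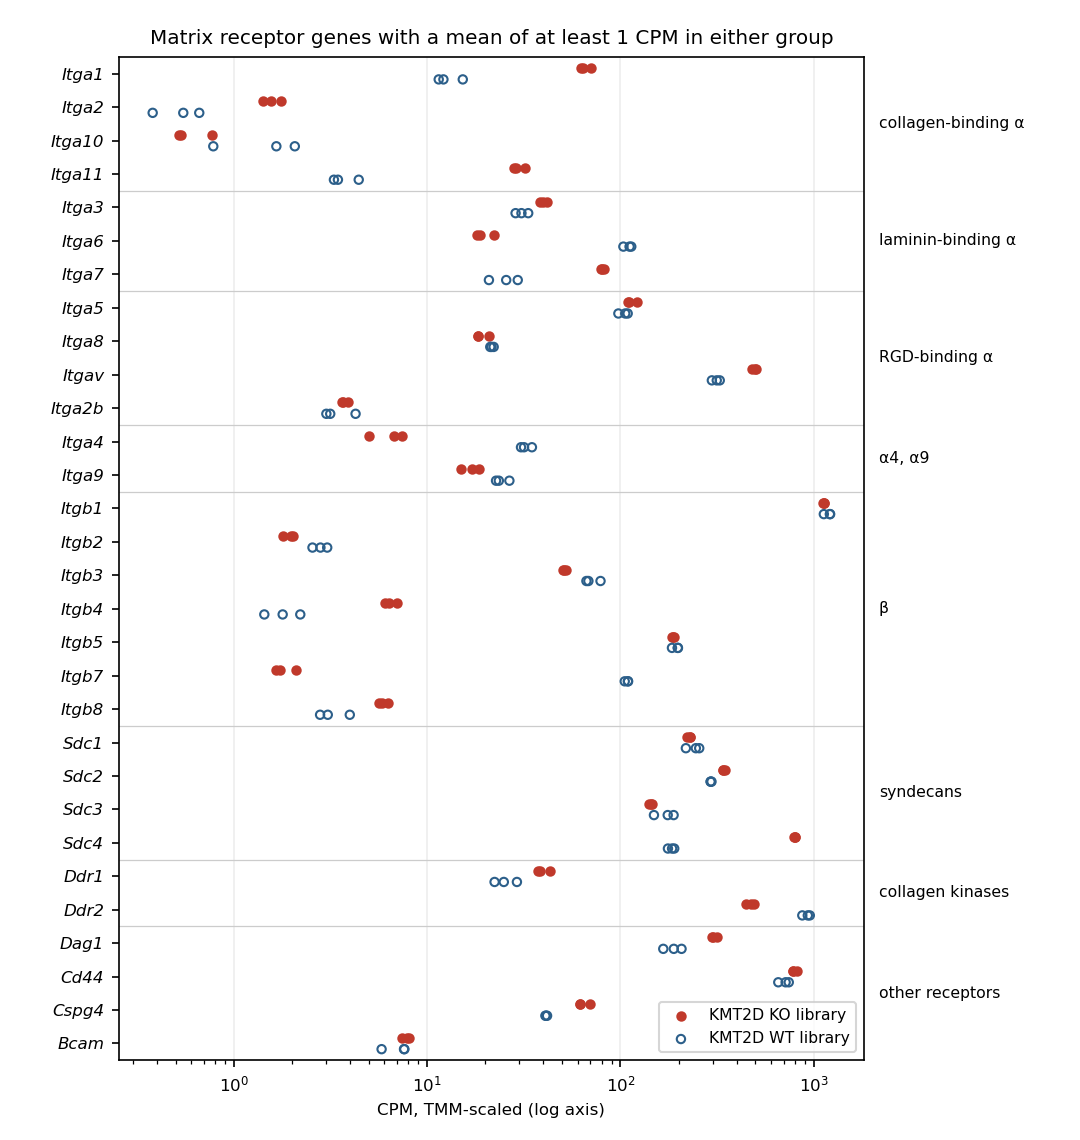
CPM of each library on a log axis for the 30 receptor genes that averaged 1 CPM or more in either group, ordered by role, with KMT2D KO libraries as filled red points above KMT2D WT libraries as open blue points. Itgb7 lies at 1.66 to 2.09 CPM in KMT2D KO and 105 to 109.6 CPM in KMT2D WT, while Itgb1 lies near the right edge in both groups.

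**Figure D2:**
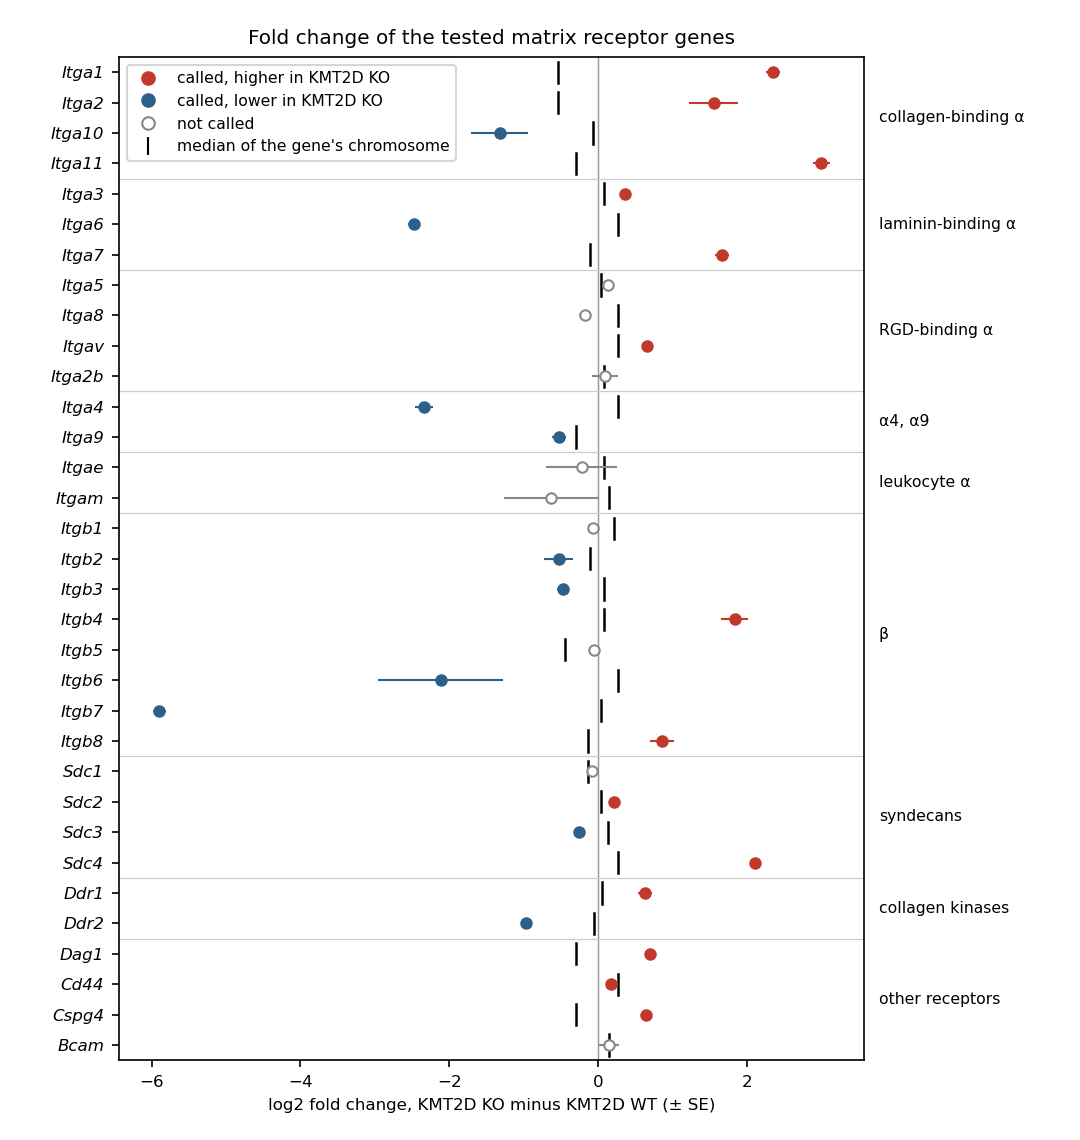
Log2 fold change of the 33 tested receptor genes, KMT2D KO minus KMT2D WT, with bars for the SE, filled points for called genes and a black tick for the median of all tested genes on the same chromosome. Values run from -5.90 (Itgb7) to 3.00 (Itga11), and the chromosome ticks lie between -0.54 and 0.27.

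The collagen-binding α genes were higher in 3 of 4 cases and lower in 1, with a median of 1.95. Over all tested genes, 35.4% were higher and 35.5% lower. Summed per length, the 4 collagen-binding genes had 17.5 ± 1.11 CPM per kb in KMT2D KO and 3.35 ± 0.305 CPM per kb in KMT2D WT (SD, n = 3 each), a ratio of 5.23. Itga11, whose chain pairs with β1 and binds fibrillar collagen, had 28.8, 28.2 and 31.9 CPM in KMT2D KO, against 3.45, 3.29 and 4.43 CPM in KMT2D WT. All KMT2D KO libraries lay above all KMT2D WT libraries, and the log2 fold change was 3.00 (by edgeR, SE 0.12, adjusted p = 7.3e-12). It lies on mm9 chromosome 9, from 62525662 to 62631786, where the median of all tested genes was -0.30. Itga1, a receptor chain for collagen IV and fibrillar collagens, had 64.3, 62.7 and 70.3 CPM in KMT2D KO, against 12.1, 11.5 and 15.3 CPM in KMT2D WT. These sets were also apart, at a log2 fold change of 2.35 (edgeR SE 0.10, adjusted p = 1.5e-11). Itga2, its neighbour on chromosome 13 at a distance of 26.0 kb with no gene between, was scarce, with 1.75, 1.42 and 1.56 CPM in KMT2D KO, against 0.547, 0.662 and 0.380 CPM in KMT2D WT. It rose by 1.55 (by edgeR, SE 0.33, adjusted p = 0.00063), while the median of chromosome 13 was -0.54. Itga10, known from cartilage, fell to 0.534, 0.521 and 0.771 CPM in KMT2D KO, against 1.66, 2.07 and 0.782 CPM in KMT2D WT, a log2 fold change of -1.32 (by edgeR, SE 0.39, adjusted p = 0.0067). KMT2D WT replicate 3 almost touched the KMT2D KO range, and without KMT2D WT replicate 2 the call was lost (log2 fold change -1.02, adjusted p = 0.060, with 0.00019 to 0.060 over all settings). In bulk RNA, fewer cells of a type and less RNA per cell cannot be told apart, here or in what follows.

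The collagen kinases moved in opposite directions. Ddr2, which responds to fibrillar collagen and is typical of mesenchymal cells, had 472, 447 and 489 CPM in KMT2D KO, against 933, 873 and 955 CPM in KMT2D WT. Its groups were well apart, and the log2 fold change was -0.97 (by edgeR, SE 0.05, adjusted p = 4.6e-10). Ddr1, known mainly from epithelia, averaged 39.6 ± 3.11 CPM in KMT2D KO and 25.5 ± 3.44 CPM in KMT2D WT (SD, n = 3 each), a rise of 0.63 (adjusted p = 2.6e-05). Ddr2 stayed the more abundant of the pair, at 56.6 CPM per kb in KMT2D KO and 111 CPM per kb in KMT2D WT, where Ddr1 had 9.89 CPM per kb in KMT2D KO and 6.36 CPM per kb in KMT2D WT. A stretch of 90 bases of Ddr2 exon overlaps 3110045C21Rik, and fragments that touch both genes are left out by the counting program's default.

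Among the laminin-binding α genes, Itga6 fell while Itga7 and Itga3 rose, and the libraries of the groups overlapped in the sum of the 3. Itga6, a laminin receptor chain that pairs with β1 and β4 (chromosome 2, 71624996 to 71696484), had 18.7, 18.2 and 22.3 CPM in KMT2D KO, against 112, 104 and 114 CPM in KMT2D WT. Every KMT2D KO library lay far below every KMT2D WT library, with a log2 fold change of -2.48 (by edgeR, SE 0.08, adjusted p = 6.7e-13). Itga7, best known as the laminin receptor chain of muscle (chromosome 10, 128370869 to 128395340), had 79.8, 80.0 and 82.4 CPM in KMT2D KO, against 25.7, 29.4 and 20.9 CPM in KMT2D WT. It rose by 1.67 (by edgeR, SE 0.09, adjusted p = 6.0e-10), again with no overlap. Itga3, which also pairs with β1, averaged 40.0 ± 1.61 CPM in KMT2D KO and 30.9 ± 2.34 CPM in KMT2D WT, a rise of 0.37 (adjusted p = 0.00039). Per length, the 3 genes summed to 31.0 ± 1.02 CPM per kb in KMT2D KO and 30.4 ± 0.729 CPM per kb in KMT2D WT (SD, n = 3 each). Within that sum Itga7 took 64.9% in KMT2D KO and 20.7% in KMT2D WT, and Itga6 took 10.6% in KMT2D KO and 60.0% in KMT2D WT. With shares within 1 sum, a higher share of 1 gene lowers the others.

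The chains that bind RGD, a short peptide motif of fibronectin, vitronectin and related proteins, included 4 genes, of which Itgav was called. Over all tested genes, 71.0% were called. Itgav, the αv chain (chromosome 2, 83564554 to 83647074), was the most abundant α gene per length in both groups, with 69.9 ± 1.60 CPM per kb in KMT2D KO and 44.4 ± 2.09 CPM per kb in KMT2D WT. Its CPM was 495, 481 and 504 in KMT2D KO, against 315, 297 and 327 in KMT2D WT. The groups were apart, and the log2 fold change was 0.66 (by edgeR, SE 0.05, adjusted p = 2.8e-08), beside a chromosome 2 median of 0.27. Itga5, the main fibronectin receptor chain, averaged 114 ± 6.21 CPM in KMT2D KO and 104 ± 5.92 CPM in KMT2D WT and was not called (log2 fold change 0.13, adjusted p = 0.064). Leaving out KMT2D WT replicate 3 brought it to 0.17 and past the threshold (adjusted p = 0.015, with 0.015 to 0.76 over all settings). Itga8, a chain for nephronectin, had 19.2 ± 1.39 CPM in KMT2D KO and 21.6 ± 0.445 CPM in KMT2D WT (-0.17, adjusted p = 0.072), and it was called without KMT2D KO replicate 3 (-0.23, adjusted p = 0.036), with a filter at a mean of 1 CPM (-0.19, adjusted p = 0.045) and under scaling by library size alone (-0.29, adjusted p = 0.0060, with 0.0060 to 0.28 over all settings). Itga2b, the platelet chain αIIb, had 3.73 ± 0.141 CPM in KMT2D KO and 3.48 ± 0.686 CPM in KMT2D WT (0.10, adjusted p = 0.63), where 7 platelet markers summed to 2.22 to 2.91 CPM in KMT2D KO and 8.02 to 11.3 CPM in KMT2D WT with Gp6 at 0 throughout. Most of the difference was Ppbp, with 0.778 CPM in KMT2D KO and 5.99 CPM in KMT2D WT. Of 5 tested platelet markers, 2 were lower, beside 35.5% of all tested genes, and 3 were not called. The untested Gp9 had 11 counts in KMT2D KO and 0 in KMT2D WT.

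Itga4 and its partner Itgb7 fell together, and Itgb7 had the largest change of all receptor genes. Itgb7, known as the β chain of gut-homing lymphocytes (chromosome 15, 102046426 to 102062366), had 1.66, 1.74 and 2.09 CPM in KMT2D KO, against 109, 109.6 and 105 CPM in KMT2D WT. That is a log2 fold change of -5.90 (by edgeR, SE 0.09, adjusted p = 2.3e-16), or a level 59.6-fold lower, and the chromosome 15 median was 0.04. Itga4, which binds VCAM-1 and fibronectin (chromosome 2, 79095583 to 79173271), had 7.40, 6.72 and 4.98 CPM in KMT2D KO, against 34.9, 30.6 and 31.7 CPM in KMT2D WT. Its log2 fold change was -2.34 (by edgeR, SE 0.12, adjusted p = 2.4e-10), with all KMT2D KO libraries below all KMT2D WT libraries. Of its exons, 166 bases overlap Cerkl. Per length, Itgb7 had 0.684 CPM per kb in KMT2D KO and 40.4 CPM per kb in KMT2D WT, while Itga4 had 0.648 CPM per kb in KMT2D KO and 3.29 CPM per kb in KMT2D WT, so in KMT2D WT the β gene was far above its α partner. Itga9, related to α4 and a receptor chain for tenascin C, had 17.2, 15.0 and 18.6 CPM in KMT2D KO, against 22.7, 23.5 and 26.6 CPM in KMT2D WT (-0.52, adjusted p = 0.00021). It lies on chromosome 9, where the median of all tested genes was -0.30, so its value less that median was -0.22.

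Itgb7 and Itga4 are best known from leukocytes, so the leukocyte members and markers are set beside them. Itgae, the other α partner of β7, had 0.313, 0.293 and 0.320 CPM in KMT2D KO, against 0.410, 0.371 and 0.291 CPM in KMT2D WT, with overlapping libraries (-0.22, adjusted p = 0.70). Itgam had 27 counts in all of KMT2D KO and 36 in KMT2D WT and was not called. Itgal had 12 counts in KMT2D KO and 11 in KMT2D WT, Itgax had 1 in KMT2D KO and 11 in KMT2D WT, and Itgad had 0 in KMT2D KO and 4 in KMT2D WT. These 3 were not tested, and for Itgad the count of 0 allows up to 0.0157 CPM over the KMT2D KO libraries. Itgb2, the β chain of these receptors, averaged 1.93 ± 0.131 CPM in KMT2D KO and 2.80 ± 0.245 CPM in KMT2D WT (-0.53, adjusted p = 0.026). That call was lost without any 1 of the KMT2D KO libraries (adjusted p = 0.060 to 0.073, with 0.0090 to 0.073 over all settings). Of 10 leukocyte markers, 1 reached a mean of 1 CPM in KMT2D KO and 2 in KMT2D WT, and they summed to 3.67 to 4.28 CPM in KMT2D KO and 10.2 to 15.6 CPM in KMT2D WT. Most of that sum was the macrophage gene Cd68, with 2.21 ± 0.313 CPM in KMT2D KO and 9.03 ± 3.63 CPM in KMT2D WT (-2.02, adjusted p = 3.4e-06). Csf1r (-1.41) and Ptprc, the pan-leukocyte CD45 gene (0.107 CPM in KMT2D KO and 0.517 CPM in KMT2D WT, -2.24), fell as well, and Cd3e and Cd79a were under 0.1 CPM in both groups. These 3 falls were among 4 tested markers, beside 35.5% lower over all tested genes, and 6 markers were not tested. The remaining tested marker, Coro1a, went the other way and was not called (0.291 CPM in KMT2D KO and 0.164 CPM in KMT2D WT, 0.82). Itgb7 alone exceeded this whole marker sum in every KMT2D WT library, and the part of leukocytes in its fall was not tested.

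The remaining β genes were led by Itgb1, the shared β chain (chromosome 8, 131209554 to 131257479). It had 1134, 1119.6 and 1131 CPM in KMT2D KO, against 1213, 1129 and 1217 CPM in KMT2D WT, the libraries overlapped, and it was not called (-0.07 by edgeR, SE 0.05, adjusted p = 0.20). Per length it made up 79.3% of all β message in KMT2D KO and 71.2% in KMT2D WT. Itgb5, a vitronectin receptor chain that pairs with αv, came second at 187 ± 2.31 CPM in KMT2D KO and 194 ± 7.76 CPM in KMT2D WT (-0.05, adjusted p = 0.38). Under scaling by library size alone, Itgb1 (-0.18) and Itgb5 (-0.16) were called lower, as were Itga8 and Sdc1. Itgb3, the other vitronectin chain, fell to 51.2 ± 0.869 CPM in KMT2D KO, against 71.3 ± 6.64 CPM in KMT2D WT (-0.48, adjusted p = 1.7e-05). Itgb8, which with αv activates latent TGF-β, rose to 5.93 ± 0.346 CPM in KMT2D KO, against 3.28 ± 0.622 CPM in KMT2D WT (0.86, adjusted p = 0.00022). Itgb6 was barely detected, with 12 counts over the KMT2D KO libraries and 48 over those of KMT2D WT, and its call (-2.12, adjusted p = 0.035) was lost without KMT2D KO replicate 1 (0.16) or 2 (0.14), without KMT2D WT replicate 1 (0.053), 2 (0.087) or 3 (0.051), with DESeq2 (0.083) and with no low-count filter (0.087), with adjusted p from 0.0082 to 0.16 over all settings.

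Itgb4, the hemidesmosome chain that pairs with α6, moved against its partner. It had 6.97, 6.07 and 6.34 CPM in KMT2D KO, against 2.21, 1.44 and 1.79 CPM in KMT2D WT, and rose by 1.84 (by edgeR, SE 0.18, adjusted p = 2.7e-07). Its exons share 55 bases with Galk1. Keratinocyte markers, of which 5 of 8 reached 1 CPM in KMT2D KO and 4 in KMT2D WT, summed to 16.6 to 17.9 CPM in KMT2D KO and 11.4 to 15.2 CPM in KMT2D WT. Among them Trp63 rose (3.77), Dsp fell (-2.55), Epcam was not tested and the others were not called. Of the 7 tested, 28.6% were called, beside 71.0% of all tested genes. The part of these markers in the Itgb4 result was not tested.

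Integrin genes were also read as the 24 αβ pairs known from mammals, as background to which chains could meet. In 17 pairs both genes reached a mean of 1 CPM in KMT2D KO, and in 17 in KMT2D WT. Both genes were called in the same direction in 2 pairs, αvβ8 (higher) and α4β7 (lower). They were called in opposite directions in 3 pairs, αvβ3, αvβ6 and α6β4. Itgb6 was under 1 CPM in both groups, and its call was lost in several settings. In 12 pairs the β gene was Itgb1, which was not called, so these could enter neither count. Over all tested genes 35.4% were higher and 35.5% lower. Several of the remaining pairs share a gene, such as Itgav, so these counts cannot show if partners change together. A link between partners was not tested. The 12 α genes that pair with β1 summed to 151 ± 5.30 CPM per kb in KMT2D KO and 112 ± 2.43 CPM per kb in KMT2D WT (SD, n = 3 each), and Itgb1 alone exceeded that sum in every library, at 269 CPM per kb in KMT2D KO and 283 CPM per kb in KMT2D WT on average. Of this α sum, Itgav took 46.3% in KMT2D KO and 39.5% in KMT2D WT, and Itga5 took 17.3% in KMT2D KO and 21.2% in KMT2D WT. Itga6 made up 2.17% in KMT2D KO and 16.2% in KMT2D WT. Message levels do not give the amount of assembled receptor.

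**Figure D3:**
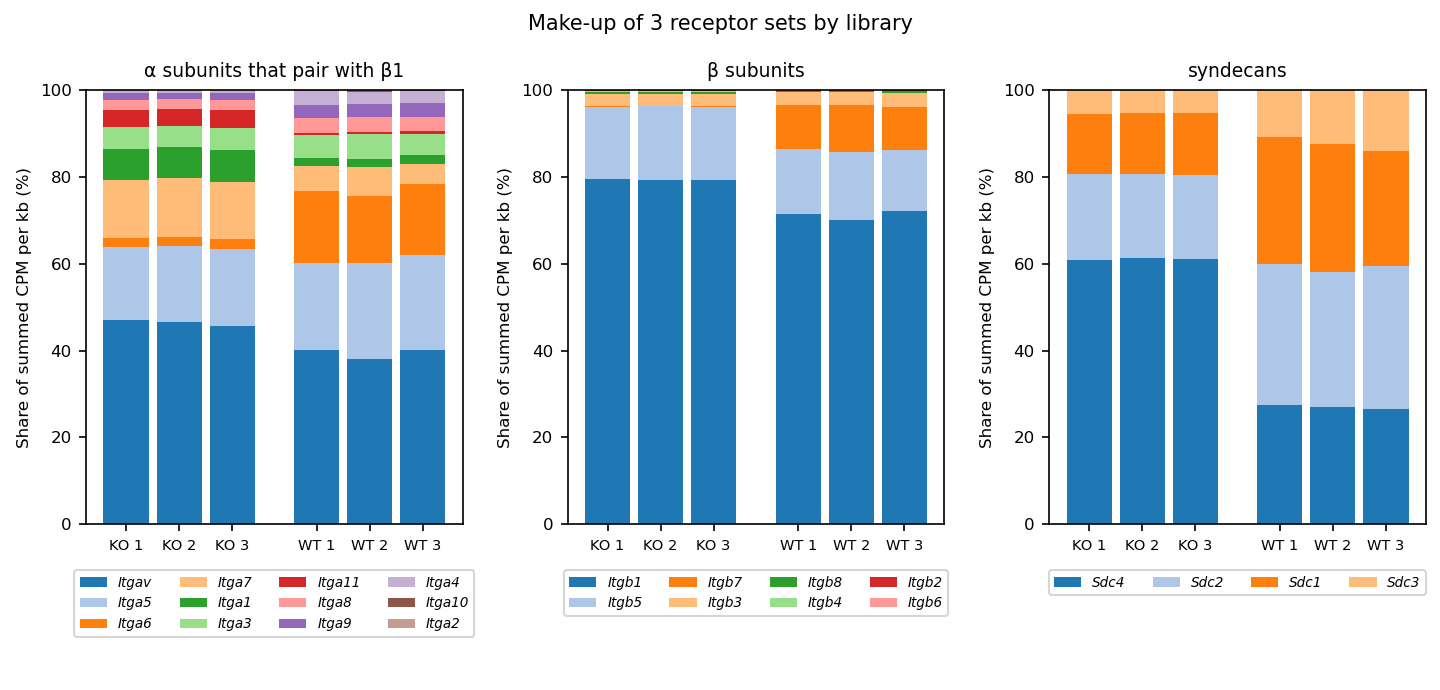
Stacked shares, in percent of the summed CPM per kb, of the α genes that pair with β1 (left), the β genes (middle) and the syndecans (right), with a bar for each library and KMT2D KO libraries left of KMT2D WT libraries. Libraries of a group look alike, Itgb7 takes 0.201% of the β sum in KMT2D KO and 10.2% in KMT2D WT, and Sdc4 takes 61.1% of the syndecan sum in KMT2D KO and 27.0% in KMT2D WT.

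Syndecan message rose through Sdc4. This gene (chromosome 2, 164249747 to 164268688), whose product acts in focal adhesions with fibronectin receptors, had 789.7, 801 and 798 CPM in KMT2D KO, against 185, 189.9 and 176 CPM in KMT2D WT. The libraries were far apart, and the log2 fold change was 2.12 (by edgeR, SE 0.05, adjusted p = 2.8e-14), beside a chromosome 2 median of 0.27. Per length it ranked 1 among the 36 receptor genes in KMT2D KO, at 324 CPM per kb, and 6 in KMT2D WT, at 74.7 CPM per kb. Sdc2, a mesenchymal syndecan, rose by 0.22 (342 ± 4.29 CPM in KMT2D KO and 294 ± 1.70 CPM in KMT2D WT, adjusted p = 0.00072). Sdc3, known from nerve and muscle, fell by 0.25 on the log2 scale (144 ± 2.69 CPM in KMT2D KO and 171 ± 20.1 CPM in KMT2D WT, adjusted p = 0.0059). Sdc1, the epithelial and plasma cell syndecan, had 227 ± 4.78 CPM in KMT2D KO and 239.9 ± 19.5 CPM in KMT2D WT and was not called (-0.08, adjusted p = 0.24), although it was without KMT2D WT replicate 3 (-0.14, adjusted p = 0.015) and under scaling by library size alone (-0.19, adjusted p = 0.011, with 0.011 to 0.68 over all settings). All 4 together had 530.2 ± 2.15 CPM per kb in KMT2D KO and 276 ± 7.63 CPM per kb in KMT2D WT (SD, n = 3 each).

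Of the other receptors, 3 rose and 1 was not called, where 71.0% of all tested genes were called and 35.4% were higher. Cd44, the hyaluronan receptor, had 783, 787 and 824 CPM in KMT2D KO, against 656, 716 and 743 CPM in KMT2D WT, and was among the 3 most abundant receptor genes per length in both groups. Its rise of 0.18 (by edgeR, SE 0.05, adjusted p = 0.0094) was below the chromosome 2 median of 0.27 and was not called under scaling by library size alone (0.07, adjusted p = 0.28, with 0.00026 to 0.28 over all settings). Dag1 rose to 304 ± 9.56 CPM in KMT2D KO, against 188 ± 20.3 CPM in KMT2D WT (0.70, adjusted p = 3.7e-07). Cspg4, the melanoma-associated proteoglycan NG2, rose to 64.4 ± 4.85 CPM in KMT2D KO, against 41.3 ± 0.416 CPM in KMT2D WT (0.64, adjusted p = 5.3e-07). Dag1 and Cspg4 lie on chromosome 9, whose median was -0.30. Bcam, a receptor for the laminin α5 chain, had 7.76 ± 0.333 CPM in KMT2D KO and 7.01 ± 1.04 CPM in KMT2D WT (0.15, adjusted p = 0.32).

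Promoter sequence is shown for the receptors that changed by more than 2 on the log2 scale with at least 1 CPM, and so were chosen by their values. Among them Itga11, Itga1 and Sdc4 were higher in KMT2D KO, and Itgb7, Itga4 and Itga6 were lower. Itga6 is not in the RefSeq promoter table (GRCm38.p6, a later build than the mm9 of the counts), and the other 5 genes are: Itga11 (chr9:62677605-62677854, plus strand), Itga1 (chr13:115101965-115102214, minus strand), Sdc4 (chr2:164443189-164443438, minus strand), Itgb7 (chr15:102231936-102232185, minus strand) and Itga4 (chr2:79255176-79255425, plus strand). Each is the 250 bases before the start of the gene, 5′ to 3′ on the strand of the gene, with capitals where a searched motif was found.
Itga11: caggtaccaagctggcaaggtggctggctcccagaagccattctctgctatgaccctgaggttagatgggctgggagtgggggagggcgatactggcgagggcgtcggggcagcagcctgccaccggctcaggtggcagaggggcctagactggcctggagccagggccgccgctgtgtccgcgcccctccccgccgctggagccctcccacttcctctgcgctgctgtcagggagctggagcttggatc
Itga1: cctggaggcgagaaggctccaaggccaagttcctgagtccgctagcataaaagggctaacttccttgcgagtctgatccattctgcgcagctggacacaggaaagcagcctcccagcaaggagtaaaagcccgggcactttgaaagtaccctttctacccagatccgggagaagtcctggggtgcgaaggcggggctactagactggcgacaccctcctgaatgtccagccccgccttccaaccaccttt
Sdc4: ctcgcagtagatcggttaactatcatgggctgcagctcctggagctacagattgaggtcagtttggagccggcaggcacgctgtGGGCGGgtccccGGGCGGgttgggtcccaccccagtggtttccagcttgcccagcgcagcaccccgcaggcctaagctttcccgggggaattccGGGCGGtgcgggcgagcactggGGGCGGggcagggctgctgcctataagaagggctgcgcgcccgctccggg
Itgb7: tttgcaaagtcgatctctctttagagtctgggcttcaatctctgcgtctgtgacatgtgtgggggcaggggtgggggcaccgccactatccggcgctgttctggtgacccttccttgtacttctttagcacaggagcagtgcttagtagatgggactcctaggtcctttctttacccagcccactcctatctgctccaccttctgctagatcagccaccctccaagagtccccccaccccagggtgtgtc
Itga4: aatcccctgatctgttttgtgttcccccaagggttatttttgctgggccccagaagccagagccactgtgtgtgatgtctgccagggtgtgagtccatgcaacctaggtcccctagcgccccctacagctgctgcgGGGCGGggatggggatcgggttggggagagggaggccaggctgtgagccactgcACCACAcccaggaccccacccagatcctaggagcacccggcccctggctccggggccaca

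The 7 motifs searched on both strands were AP-1 (TGANTCA), TEAD (GGAATG), the GC box (GGGCGG), the TATA box (TATAAA), the E box (CACGTG), RUNX (TGTGGT) and ETS (CCGGAAG). Sdc4 held 4 GC boxes, and Itga4 held 1 GC box and 1 RUNX match on the opposite strand, none of them overlapping. The windows of Itga11, Itga1 and Itgb7 held none of the 7. Of 27 receptor genes in the promoter table, 12 had a GC box at some start site, as did 35.4% of the 27025 genes in that table. AP-1 was found in 2 (7.82% of all genes), TEAD in 2 (14.4%), RUNX in 2 (15.9%), the TATA box in 1 (14.3%), ETS in 1 (7.83%) and the E box in 0 (6.86%). Of the 32851 single promoters, 32.7% held a GC box. A match is a stretch of letters, not a bound site.

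The ligands of these receptors are given as lists by function, to be read beside the 35.4% of all tested genes that were higher and the 35.5% that were lower. Collagen genes were higher in 13 of 14 tested cases, with a median of 1.80, and Col18a1 (-0.06) was not called. Col6a2 had 723 ± 21.5 CPM in KMT2D KO and 18.6 ± 0.908 CPM in KMT2D WT (5.28), and Col11a1 had 197 ± 8.71 CPM in KMT2D KO and 5.95 ± 0.901 CPM in KMT2D WT (5.04). Of 11 laminin chains, 5 were higher and 4 lower (median 0.35, 2 not called), close to those shares. Lama3 rose by 2.68 and Lama1 by 2.50, while Lamb3 (-3.59) fell. Of 19 tested RGD and related ligands, 11 rose and 4 fell (median 0.46, 4 not called), among them Edil3 (2.80), the α8 ligand gene Npnt (2.16), Fbln5 (-0.76) and Nid1 (-0.60, on chromosome 13, whose median was -0.54). Fn1, the fibronectin gene, named here after its values were seen, had 4844 ± 228 CPM in KMT2D KO and 2899 ± 239 CPM in KMT2D WT (0.74). Cell-surface ligands gave 2 higher and 1 lower of 5 (median 0.23, 2 not called), among them Icam1 (1.75) and the α4 ligand gene Vcam1 (283 ± 2.31 CPM in KMT2D KO and 144 ± 4.69 CPM in KMT2D WT, 0.97).

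**Figure D4:**
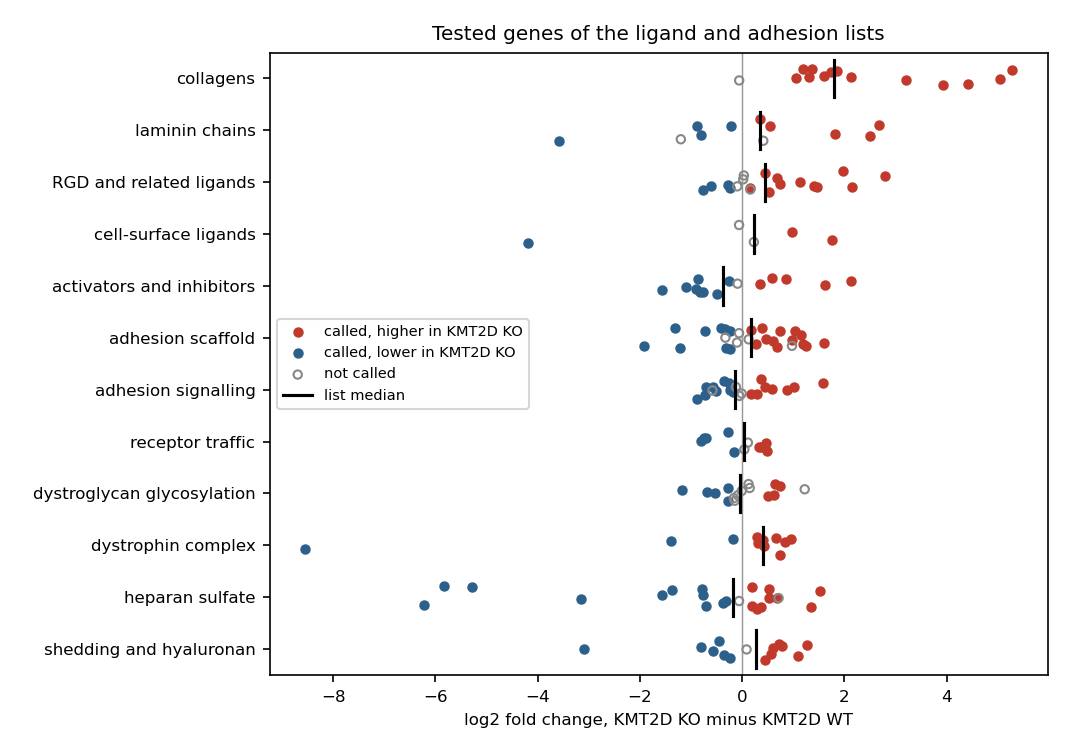
Log2 fold change of each tested gene, KMT2D KO minus KMT2D WT, in 12 lists of ligands and adhesion genes, with a black bar for the median of a list. Collagens stand to the right with a median of 1.80, while the medians of the other 11 lists lie between -0.37 and 0.46.

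The genes that switch integrins on or tie them to actin were called in both directions, as were all tested genes (35.4% higher and 35.5% lower). Of 14 tested activators and inhibitors, 5 rose and 8 fell (median -0.37, 1 not called). The talin gene Tln2 rose to 101 ± 3.23 CPM in KMT2D KO, against 33.0 ± 0.970 CPM in KMT2D WT (1.61), as did Rasgrp2 (2.13), while Apbb1ip (-1.10) and the blood-cell kindlin gene Fermt3 (-1.57) fell. Of 27 scaffold genes, 13 rose and 9 fell (median 0.16, 5 not called), among them Kank1 (1.60), Pdlim5 (1.25), Tns4 (-1.92) and Tns1 (-1.31). Of 22 signalling genes, 8 rose and 10 fell (median -0.15, 4 not called), among them Efs (1.58), Cav1 (1.02), Ptpn12 (-0.89) and Pak2 (-0.72). Medians of all tested genes were 0.42 on the chromosome of Cav1, -0.36 on that of Ptpn12 and -0.44 on that of Pak2.

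Calls among the partners of dystroglycan and the genes that build sugar chains are set beside the 71.0% of all tested genes called. Of 11 tested members of the dystrophin complex, to which dystroglycan belongs, 8 rose and 3 fell, so that 100% were called, with a median of 0.41. Sspn rose by 0.96 and Sgce by 0.83 on a chromosome with a median of 0.42, Dtnb fell (-1.39), and Dtna had 3 counts over the KMT2D KO libraries and 6.62 ± 0.938 CPM in KMT2D WT. Of 16 dystroglycan glycosylation genes, 4 rose and 5 fell (median -0.05, 56.2% called), among them Dpm3 (0.74), B4gat1 (0.65) and B3galnt2 (-0.68, on chromosome 13 with its median of -0.54). Heparan sulfate genes gave 9 higher and 11 lower of 22 (median -0.18, 90.9% called). The sulfatase gene Sulf2 rose to 395 ± 11.2 CPM in KMT2D KO, against 137 ± 7.70 CPM in KMT2D WT (1.52), and the chain-starting gene Xylt2 rose by 1.35. The other sulfatase gene, Sulf1, fell to 0.136 ± 0.00899 CPM in KMT2D KO, against 10.3 ± 0.888 CPM in KMT2D WT (-6.23), and Ndst3 fell by 3.15 on the log2 scale.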

How the data were processed

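RNA was sequenced from 3 KMT2D KO and 3 KMT2D WT libraries. The deposited values are counts of read fragments over the exons of each gene, made by the authors with featureCounts 1.5.2 on mm9 gene models without a strand option, per the file headers. The submitters' processing notes also list STAR and HTSeq, without their roles. Without strand, reads from overlapping or antisense genes cannot be told apart, and by the program's defaults reads that match several places or genes are left out. Exons of 6 receptor genes overlap another gene.

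From these counts, genes were filtered by filterByExpr, scaled by TMM and compared with the quasi-likelihood test of edgeR 4.0.16 (R 4.3.3) across all 14579 genes that passed, of 24391, with KMT2D KO minus KMT2D WT as the contrast. Calls needed a Benjamini-Hochberg adjusted p below 0.05. SE was the absolute log2 fold change over the square root of F. CPM uses the TMM-scaled library size, and CPM per kb divides by the exon length in the files. Totals were 43168605 to 79718782 counts, and the biological coefficient of variation was 7.94%. A count of 0 allows up to 3 counts, for counting error only. Groups came from the sample labels. Receptor genes were named with values for each library where called beyond a log2 fold change of 1 with a mean of at least 1 CPM, or most abundant per length in their role. List genes were the largest called changes in each direction with at least 1 CPM. Members follow from gene symbols, but the family and the lists were chosen with earlier results of these data known. The fit was tested on simulated data. Alternatives were other scalings, DESeq2 1.42.0, limma 3.58.1 with voom, other filters, a robust fit, a replicate block, leaving out each library and subtracting the chromosome median. An allele shared by both groups and single genes of the lists are not reported here by name.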

Additional observations from a re-analysis of the deposited data

How the results depend on the processing

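Under 14 other settings with a test, 20 of the 33 tested receptor genes were called every time, and of the 11 with a log2 change beyond 1, 9 were. The matching share of all tested genes was not counted, so this does not set the receptors apart. Leaving out each library in turn gave 14 to 15 receptor genes higher and 8 to 10 lower, and called 63.6% to 72.4% of all tested genes. Subtracting the chromosome median turned or moved 17 of 33 receptor values beyond the replicate spread (1 SD), and turned Cd44 to -0.10 and, among genes not called, Itgb5 to 0.39, Sdc1 to 0.06 and Bcam to -0.0032. Scaling by library size alone turned Itga2b to -0.014 and called Itga8, Itgb1, Itgb5 and Sdc1 lower. Scaling by library size alone and DESeq2 each called 1 collagen gene lower, and the cause was not tested. A filter at a mean of 1 CPM left 0 cell-surface ligands lower. The 1 called lower in the main fit, Icam2, averaged 0.0293 CPM in KMT2D KO and 0.599 CPM in KMT2D WT, under that filter. With a replicate block 15 receptor genes were higher and 9 lower, Itgb2 was lost (adjusted p = 0.052) and Itga5 gained (adjusted p = 0.033), and 10368 of all genes were called, against 10345 without it. Deviations of same-numbered libraries correlated at 0.0149, 0.00114 and 0.00946, so the numbers were not taken to pair the samples. Itgb6 rests on 12 counts in KMT2D KO and 48 in KMT2D WT, which limits its precision.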

Other observations

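Receptor traffic and cleavage genes were also measured. Of 11 tested genes of integrin traffic, 4 were higher in KMT2D KO, 5 were lower and 2 were not called by edgeR, with a median log2 fold change of 0.04, near the 35.4% higher and 35.5% lower over all tested genes. The endocytic adaptor genes Dab2 (0.49) and Numb (0.48) rose, and the recycling GTPase genes Rab4a (-0.80) and Rab11a (-0.75) fell, the last on chromosome 9, whose median was -0.30. Of 14 genes of receptor shedding and hyaluronan, 7 were higher, 6 lower and 1 not called (92.9% called, beside 71.0% of all tested genes), with a median of 0.27. The hyaluronan synthase gene Has2 had 58.1 ± 2.75 CPM in KMT2D KO and 27.4 ± 1.66 CPM in KMT2D WT (1.08), while Has1 had 0.780 ± 0.255 CPM in KMT2D KO and 6.56 ± 0.794 CPM in KMT2D WT (-3.09). The protease gene Mmp9 rose by 1.26, and Adam10, which cuts Cd44, had 129 ± 1.36 CPM in KMT2D KO and 226 ± 5.85 CPM in KMT2D WT (-0.81, also on chromosome 9).

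Of the other cell type marker lists, 7 endothelial genes summed to 0.545 to 1.06 CPM in KMT2D KO and 1.18 to 2.48 CPM in KMT2D WT, and 7 pericyte and muscle genes to 4.21 to 4.70 CPM in KMT2D KO and 2.27 to 3.35 CPM in KMT2D WT, with Myog at 0. A set of 6 Schwann cell genes summed to 1.45 to 1.76 CPM in KMT2D KO and 7.91 to 10.6 CPM in KMT2D WT. Of 5 tested, 3 were lower, 1 was higher and 1 was not called, with log2 fold changes from -4.60 to 1.81. Over all tested genes, 35.5% were lower and 35.4% higher.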
